A study of Mus musculus with 2 samples.

Results

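The 38 genes described here build and sulfate glycosaminoglycans, the long charged sugar chains of cartilage, and were taken by name from the 32245 gene columns of 2 single-cell RNA-seq tables. All 38 had a column in both tables. They fall into 5 groups by role, namely 4 genes for sugar precursors, 6 for the linker that joins a chain to its core protein, 14 for the chondroitin and dermatan branch, 10 for the heparan branch and 4 for the supply of sulfate. The cells came from knee joints of female C57BL/6 mice aged 1 month. The control genotype was Stat3fl/fl and the mutant was labelled Acan-Cre+/Cre;Stat3fl/fl, so that both carried floxed alleles of Stat3, a transcription factor, and only the mutant carried Cre. Cre was the tamoxifen-inducible CreERT2 form under the promoter of Acan, the gene of the main cartilage proteoglycan. It was used in heterozygotes, and tamoxifen was given on postnatal days 2 and 3. Whether the controls of this experiment received tamoxifen is not given in the sources used here. Joints of 2 to 3 mice were pooled per genotype and live cells without CD31, Ter119 or CD45 were sorted, which should deplete endothelial cells, red cells and leukocytes. There was 1 library per genotype, so no test between genotypes was possible and every value below describes these 2 libraries.

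Glycosaminoglycan chains are made in the Golgi on core proteins. A short linker is started by xylosyltransferase, and the first sugar added after it decides whether the chain becomes chondroitin or heparan. Sulfotransferases then decorate the chain with sulfate taken from the donor PAPS, which cells make from imported sulfate. In cartilage, chondroitin sulfate chains on aggrecan hold the water that lets the tissue bear load, and inherited defects of several of these genes cause short stature or chondrodysplasia.

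The control table held 4903 cells and that of the mutant held 1340. The authors had marked 501 control and 332 mutant cells as expressing both Sox9, the master regulator of chondrocytes, and Col2a1, the cartilage collagen. These are called marked chondrocytes here, with a median of 5876 estimated unique molecular identifiers (UMIs) per cell in the control and 8595 in the mutant. The mark was checked on 6 cartilage genes that did not define it (Acan, Col9a1, Col11a1, Hapln1, Matn3 and Cnmd), which were seen in 67.7 to 98.4% of marked control cells and in 51.8 to 91.0% of marked mutant cells. None of the marked cells held a globin UMI, whereas 75.7% of all control cells and 8.43% of all mutant cells did, and 512 further control cells expressed Sox9 and Col2a1 but held globin and were not marked. Erythroid-gated cells made up 34.0% of the control library and 1.42% of the mutant library despite the sort. Of the marked cells, 3.99% in the control and 20.2% in the mutant had over 5% mitochondrial counts. The libraries shared 2 cell barcodes, and their marked cells shared none. Stat3 itself stood at 142 CPM in the marked control cells and 103 CPM in the marked mutant cells, where CPM is a gene's UMIs scaled to a total of 1000000 over the summed cells, but 3′ tags need not lie in the deleted part and so do not check the deletion.

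Levels were compared between marked chondrocytes and 6 other stromal classes, each gated on at least 3 of 6 markers. These were osteoblast (111 control and 77 mutant cells), fibroblast (248 and 113), synovial lining (232 and 59), tenocyte (261 and 41), marrow stromal (140 and 99) and mural (62 and 43). A gene was compared when it averaged at least 10 CPM, and it was called when marked chondrocytes differed at least 2-fold the same way in both libraries from the mean of the 6 classes. Of the 38 genes, 31 were compared, and 10 of them (32.3%) were at least 2-fold higher in marked chondrocytes in both libraries, against 5.19% of the 8355 genes compared in all. The 10 were Chst11, Papss2, Xylt1, Slc26a2, Csgalnact1, Slc35d1, Glce, Fam20b, Uxs1 and Chsy3. Chsy3 and Slc35d1 lost the call both with a pseudocount of 10 CPM and after thinning to 1500 UMIs, Fam20b with the pseudocount, Uxs1 with thinning, and Chsy3 also with cells weighted equally. Only Extl2 was at least 2-fold lower in both, against 13% of all genes, and it lost the call in 5 of 12 alternative settings. On the log2 scale with a pseudocount of 1 CPM, the 31 genes had a median of 0.35 for control and 0.16 for mutant cells, where the medians of all genes compared were -0.20 and -0.27 (-0.10 in each after scaling by the median ratio of all genes). The other 7 genes (Xylt2, B3galt6, Chst3, Chst7, Chst13, Ndst2 and Hs6st2) were below the minimum and their values are given without a call.

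**Figure D1:**
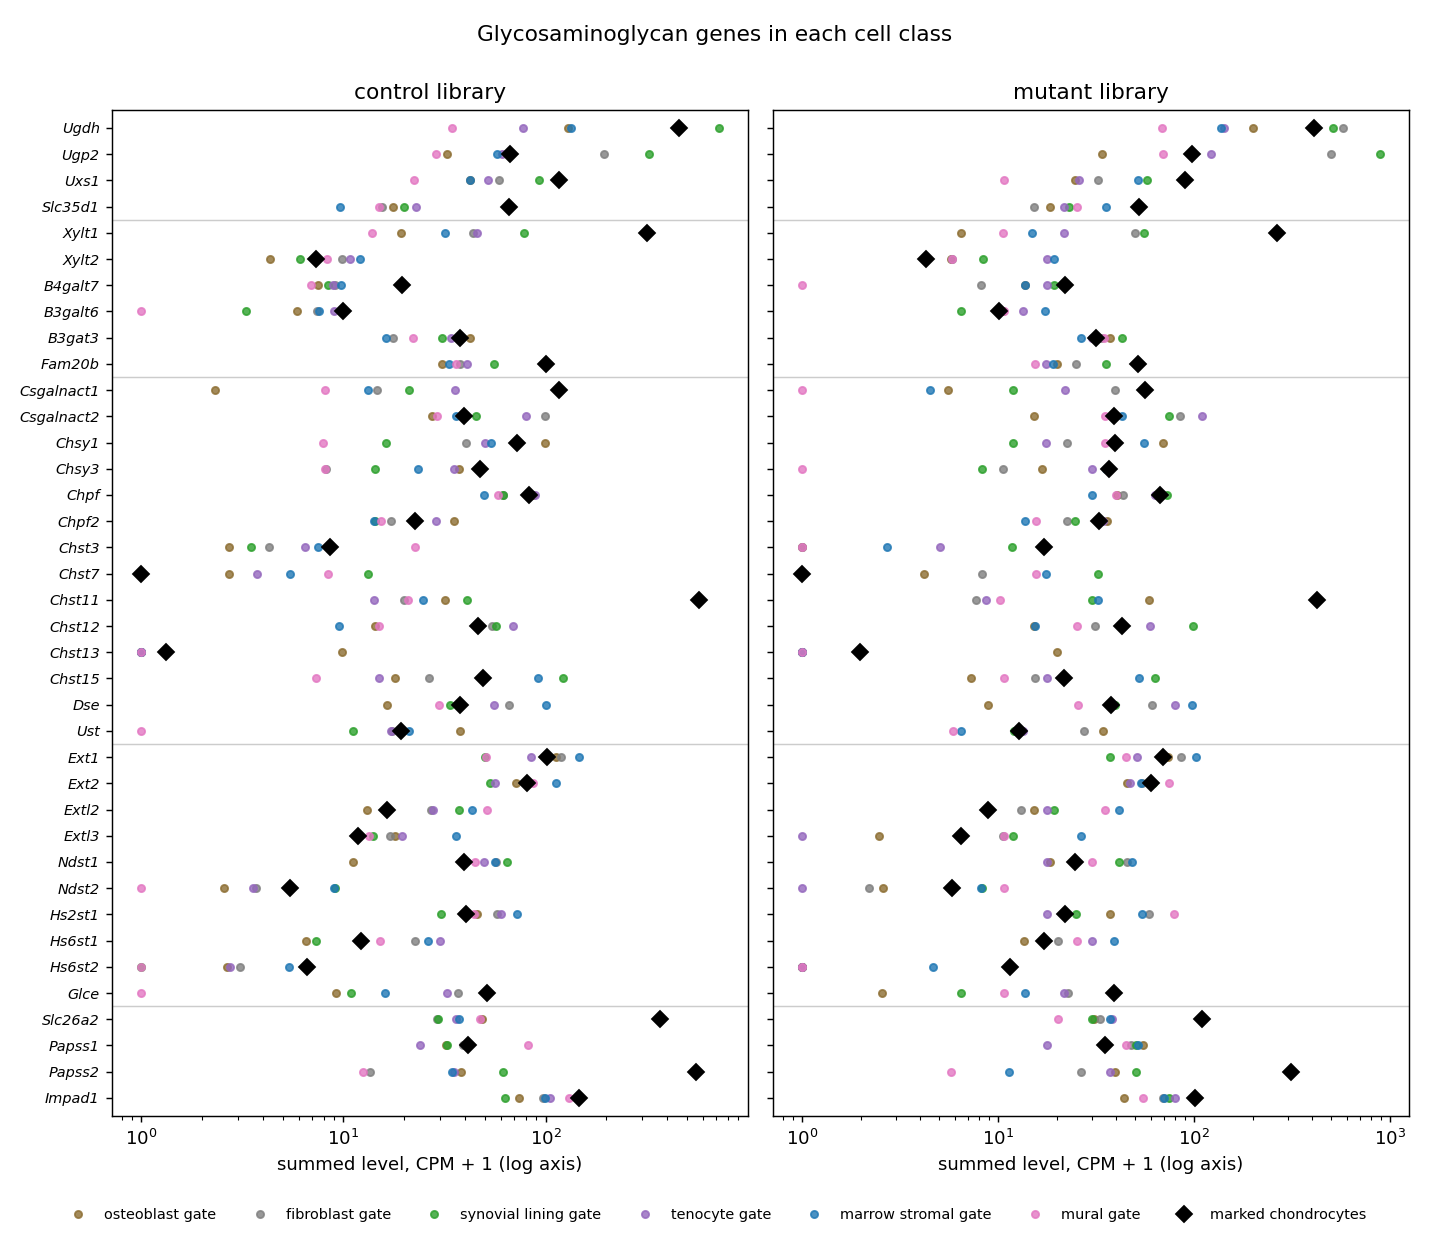
Summed level (CPM + 1, log axis) of each of the 38 genes in marked chondrocytes (black diamonds) and in 6 gated stromal classes (coloured points), control library on the left and mutant library on the right, with lines between the 5 groups by role. The diamonds of Xylt1, Chst11, Slc26a2 and Papss2 lie to the right of every other class in both libraries, whereas those of the heparan branch lie mostly among the other classes.

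Chst11, which puts sulfate on the 4-position of chondroitin, had the largest class difference of the set. It reached 571 CPM in control and 421 CPM in mutant marked chondrocytes, and 24.4 and 23.6 CPM in the mean of the other classes, a 22.5-fold and a 17.1-fold difference. The highest other class was synovial lining in the control, at 39.7 CPM, and osteoblast in the mutant, at 57.5 CPM. At least 1 UMI was seen in 75.8% of marked control cells (95% exact Clopper-Pearson interval 71.9 to 79.5%) and in 64.5% of marked mutant cells (59.0 to 69.6%). In erythroid-gated control cells the share was 15.4% at a median of 6128 UMIs per cell. Papss2 was seen in 0.3% and Acan in 2.1% of these erythroid-gated cells. Erythroid shares are therefore given as values of that class, not as a floor, and whether they come from free RNA was not tested. The 3 cells with most Chst11 UMIs held 3.07% of them in the control and 6.52% in the mutant, so that the level did not rest on a few cells. These intervals, and all others here, cover counting error only.

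Papss2, which makes the sulfate donor PAPS, came next, at 551 CPM in control and 309 CPM in mutant marked chondrocytes against 31.6 and 27.4 CPM elsewhere. That is a 16.9-fold and a 10.9-fold difference. Its paralogue Papss1 catalyses the same reaction but did not differ between classes in this way, at 40.4 and 34.1 CPM in marked chondrocytes against 40.7 and 43.5 CPM elsewhere. Slc26a2, the plasma membrane sulfate transporter whose loss causes diastrophic dysplasia, stood at 369 and 109 CPM against 36.9 and 30.5 CPM. Impad1, the Golgi phosphatase that clears the by-product of sulfation, was the highest of the 7 classes in both libraries but by a smaller factor of 1.55 and 1.54. The 4 sulfate supply genes together summed to 1106 CPM in control and 551 CPM in mutant marked chondrocytes, against 203 and 166 CPM elsewhere. Without Papss2 the sum still differed, at 555 and 242 CPM against 171 and 138 CPM.

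Promoter sequences of 4 genes are shown because the genes bear on these contrasts: Chst11 and Papss2 are the most chondrocyte-high, Papss1 is the paralogue that is not, and Chst3 is described below as the gene highest in the mutant relative to control. Each run holds 250 bases before and 50 after a RefSeq start on GRCm38, 5′ to 3′ on the gene's strand, at chr10:82985247-82985546 (plus strand) for Chst11, chr19:32595465-32595764 (plus) for Papss2, chr3:131564518-131564817 (plus) for Papss1 and chr10:60219211-60219510 (minus) for Chst3. In the Gencode annotation of the same build the genes span chr10:82985498-83195900, chr19:32595790-32667187, chr3:131564768-131643671 and chr10:60181532-60219260, so that each run lies over the start of its gene or just upstream. Papss1 and Papss2 each have another start in the table, and the upstream one is shown. Capitals mark the GC box GGGCGG or its complement in the first 3 and the SOX-type motif ACAAAG in Chst3, whose single GC box stays in lower case.
Chst11: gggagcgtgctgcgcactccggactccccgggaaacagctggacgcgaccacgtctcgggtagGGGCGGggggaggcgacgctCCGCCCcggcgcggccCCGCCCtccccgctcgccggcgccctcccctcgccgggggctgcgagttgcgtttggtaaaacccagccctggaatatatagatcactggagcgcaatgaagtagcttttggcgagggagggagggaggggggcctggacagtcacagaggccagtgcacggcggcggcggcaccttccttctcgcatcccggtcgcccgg
Papss2: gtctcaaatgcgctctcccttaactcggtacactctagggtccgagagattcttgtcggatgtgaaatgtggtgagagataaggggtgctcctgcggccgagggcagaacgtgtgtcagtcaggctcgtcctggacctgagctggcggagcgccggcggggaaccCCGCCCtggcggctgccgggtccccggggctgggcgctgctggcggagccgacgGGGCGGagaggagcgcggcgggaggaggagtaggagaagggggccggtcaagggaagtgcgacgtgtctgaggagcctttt
Papss1: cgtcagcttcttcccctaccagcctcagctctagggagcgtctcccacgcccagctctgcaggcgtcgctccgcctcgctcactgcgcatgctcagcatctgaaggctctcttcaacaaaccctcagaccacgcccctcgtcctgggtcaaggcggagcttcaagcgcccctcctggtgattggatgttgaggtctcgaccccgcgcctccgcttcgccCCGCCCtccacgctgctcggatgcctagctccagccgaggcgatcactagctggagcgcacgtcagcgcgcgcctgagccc
Chst3: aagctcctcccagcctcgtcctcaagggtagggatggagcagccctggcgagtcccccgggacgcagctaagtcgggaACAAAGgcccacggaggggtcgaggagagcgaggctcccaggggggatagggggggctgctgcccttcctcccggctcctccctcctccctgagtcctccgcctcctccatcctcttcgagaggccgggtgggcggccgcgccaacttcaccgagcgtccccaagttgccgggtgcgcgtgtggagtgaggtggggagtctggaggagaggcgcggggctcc

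Of the 38 genes, 30 had at least 1 promoter in the RefSeq table, 38 promoters in all. None was listed for Xylt1, Slc26a2, Csgalnact1, Chsy3, Ext1, Extl3, Ndst1 and Impad1, so the motif counts do not cover them. Of these, Xylt1, Slc26a2, Csgalnact1 and Chsy3 were among the genes called higher in marked chondrocytes. The 38 promoters were rich in CG pairs, with a median of 24 per 300 bases against 7 over all 32851 promoters. The GC box stood in 27 of the 38 (71.1%), against 35.7% of all promoters. The SOX-type motif ACAAAG, searched because SOX9 marks these cells, stood in 1 of the 38 (2.63%), that of Chst3, against 18.7% of all. The STAT-type motif TTCNNNGAA stood in none of the 38, against 8.30% of all. All motifs were searched on both strands, and none contains another. A match is a description of letters, not of binding, and a factor may act from elsewhere.

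Of the precursor genes, Uxs1, which makes the UDP-xylose that starts the linker, was at 115 and 88.5 CPM in control and mutant marked chondrocytes against 50.7 and 32.8 CPM elsewhere. Slc35d1, the transporter that carries UDP-sugars into the lumen where chains are made, was at 64.6 and 51.1 CPM against 15.8 and 22.1 CPM. Ugdh, which makes UDP-glucuronic acid for both branches and for hyaluronan, was abundant at 455 and 408 CPM but was not the highest there. Synovial lining cells held 718 CPM of Ugdh in the control, and fibroblasts 570 CPM in the mutant. Ugp2, which makes UDP-glucose, was highest in synovial lining cells of both libraries at 326 and 883 CPM, against 65.7 and 96.5 CPM in marked chondrocytes. Of the 4 precursor genes, Uxs1 and Slc35d1 were thus highest in marked chondrocytes in both libraries, and Ugdh and Ugp2 in neither.

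Of the linker genes, Xylt1, which adds the first xylose, was at 317 and 263 CPM in marked chondrocytes against 37.9 and 25.4 CPM elsewhere, an 8.19-fold and a 10.0-fold difference. Its paralogue Xylt2 was low in all classes, at 6.3 and 3.25 CPM in marked chondrocytes against 7.56 and 9.42 CPM. Fam20b, the kinase that phosphorylates the linker xylose, was at 99.9 and 50.8 CPM against 38 and 21.0 CPM. B4galt7, which adds the first galactose, was at 18.6 and 20.8 CPM against 7.44 and 11.2 CPM, which is 2.32-fold in the control and 1.78-fold in the mutant. B3galt6, which adds the second galactose, was at 9.0 and 9.08 CPM in marked chondrocytes, highest of the 7 classes in the control but not in the mutant. B3gat3, which completes the linker, was at 36.9 and 30.6 CPM and lay among the other classes in both. The summed linker level in marked chondrocytes was 488 and 378 CPM against 122 and 111 CPM, and without Xylt1 it was 171 and 114 CPM against 83.9 and 85.3 CPM.

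In the chondroitin and dermatan branch, 3 of the 11 genes compared (27.3%) were called higher and none lower. Over all genes compared the shares were 5.19% and 13%. With 11 genes, nothing is read from the lack of lower calls. Csgalnact1, which commits the linker to chondroitin, was at 115 and 54.7 CPM in marked chondrocytes against 14.8 and 13.0 CPM elsewhere. Its paralogue Csgalnact2 was at 38.3 and 37.8 CPM against 51.9 and 59.1 CPM, and was highest in fibroblasts of the control and in tenocytes of the mutant. Chsy3, a chain polymerase, was at 46.5 and 35.8 CPM against 20.1 and 16.0 CPM. The other polymerising genes were not called: Chsy1 was highest in osteoblasts of both libraries, at 98.0 and 68.0 CPM, while Chpf and Chpf2 stood at 81.9 and 21.7 CPM in control marked chondrocytes, less than 2-fold from the mean of the other classes in both libraries.

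Among the sulfotransferases of this branch, only Chst11 was called. Chst12, which also sulfates the 4-position, was at 45.5 and 41.6 CPM in marked chondrocytes against 35.5 and 39.7 CPM. Chst15, which adds a second sulfate to 4-sulfated units, was highest in synovial lining cells, at 121 and 62.3 CPM against 48.0 and 20.5 CPM in marked chondrocytes. Chst3, which sulfates the 6-position, was low at 7.54 and 16.2 CPM. Chst7, another 6-sulfotransferase, had no UMI in any of the 501 and 332 marked cells, which allows shares of up to 0.599% and 0.904% of cells with a UMI by a floor of 3 counts (0.734% and 1.10% by the upper exact Clopper-Pearson bound), and was highest in synovial lining cells at 12.2 and 31.2 CPM. Chst13 was seen in 1 marked control cell and 2 marked mutant cells, and in osteoblasts at 8.86 and 19.0 CPM. Dse, the epimerase that turns chondroitin into dermatan, and Ust, which sulfates its uronic acid, were not higher than the mean of the other classes in both libraries, at 36.8 and 18.2 CPM in control marked chondrocytes.

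The heparan branch differed less between classes. Glce, the epimerase of heparan chains, was called higher, at 50.3 and 37.8 CPM against 16.7 and 12.0 CPM. Ext1 and Ext2, whose products polymerise the chain and whose loss causes cartilage-capped exostoses, stood at 100.1 and 80.3 CPM in control marked chondrocytes against 93.1 and 75.6 CPM, and lay among the other classes in the mutant too. Extl2, a regulator of chain length, was at 15.4 and 7.81 CPM against 32.3 and 22.6 CPM. Extl3, Ndst1, which removes acetyl groups and adds N-sulfate, and Hs2st1, a 2-O-sulfotransferase, were below the mean of the other classes in both libraries, as was Hs6st1. Hs6st1 was instead at 107 CPM in erythroid-gated control cells, where 47.5% of cells held a UMI, against 7.78% of marked chondrocytes. Hs6st2 was at 5.59 and 10.4 CPM in marked chondrocytes and at 1.65 and 0.607 CPM elsewhere, but 3 cells held 53.2% of its UMIs in the mutant. Ndst2 was under 5 CPM in marked chondrocytes of both libraries.

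The branches were set against each other by their share of UMIs within each class. In marked chondrocytes, the chondroitin and dermatan branch held 75.6% of the UMIs of both branches in the control (74.3 to 76.8%) and 76.2% in the mutant (74.7 to 77.6%). In the other control classes the share ran from 42.3% in mural cells (30.6 to 54.6%) to 62.3% in synovial lining cells (58.8 to 65.6%), and in the mutant from 40.2% in mural cells to 69.5% in tenocytes (61.6 to 76.6%). The heparan branch itself was at a similar level in marked chondrocytes and elsewhere, at 356 against 356 CPM in the control and 254 against 269 CPM in the mutant, while the chondroitin branch was at 1102 against 401 CPM and at 812 against 368 CPM. The ratio of the branches was 1.46 higher on the log2 scale in marked chondrocytes than in the other classes in the control, and 1.22 higher in the mutant.

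This difference rested largely on 1 gene. Chst11 held 51.8% of the branch's UMIs in marked chondrocytes of each library, and without it the share was 59.9% in the control (58.0 to 61.7%) and 60.7% in the mutant (58.5 to 62.8%). Synovial lining cells without Chst11 stood at 60.0% (56.5 to 63.5%) and 67.2% (62.1 to 72%), so that marked chondrocytes were then no longer the highest class. The log2 difference of the branch ratio became 0.49 and 0.27. The summed chondroitin branch without Chst11 differed between marked chondrocytes and the other classes by 0.49 on the log2 scale in the control and by 0.19 in the mutant.

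**Figure D2:**
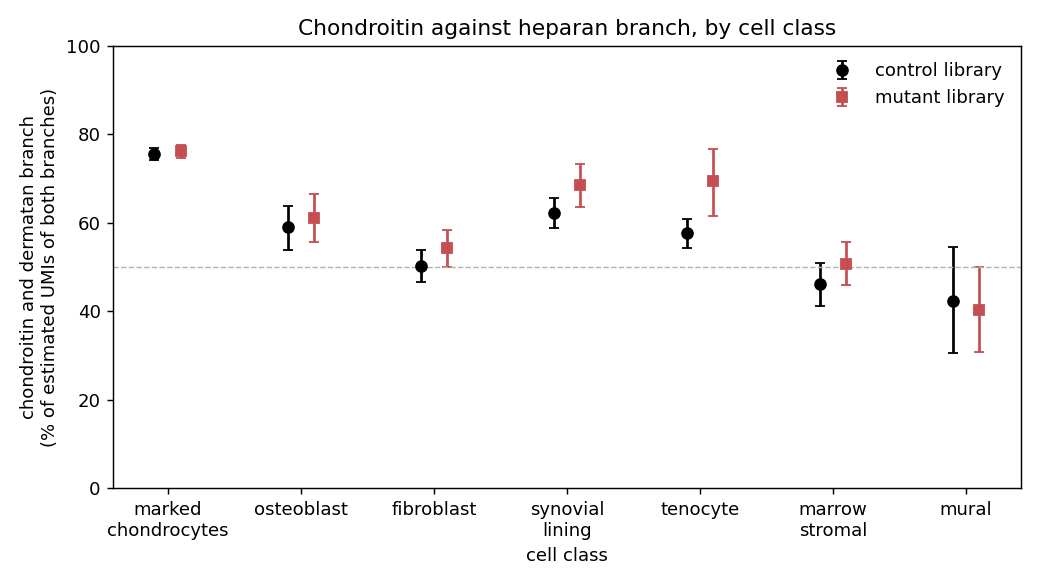
Chondroitin and dermatan branch as a percent of the estimated UMIs of both branches, by cell class, with the control library as black circles and the mutant library as red squares; bars are 95% exact Clopper-Pearson intervals and the dashed line is at 50%. Marked chondrocytes stand at 75.6% and 76.2%, and mural cells are lowest at 42.3% and 40.2%.

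After thinning, single marked chondrocytes also held more of the 38 genes on average. After each cell was thinned to 1500 UMIs, a marked control cell held 4.11 ± 1.97 of the 38 genes (SD over 480 cells) and a marked mutant cell 2.82 ± 1.69 (SD over 309 cells). The means of the other stromal classes ran from 1.39 in mural to 2.73 in synovial lining cells of the control, and from 1.17 to 2.43 in the mutant. The mutant synovial lining value of 2.43 had an SD of 1.44, so that the 2 classes overlapped widely there. Without thinning, the median was 10 genes in marked and 6 in synovial lining cells of the control. In the mutant it was 10 in both, at medians of 8595 and 8934 UMIs per cell. The cells are not replicates, and these spreads describe cells within 1 library.

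Marked chondrocytes were not uniform in these genes. They were divided by whether a cell held more of 6 articular markers or more of 6 growth cartilage markers, none of which is among the 38 genes. The articular markers share a gene with the synovial lining markers and are not particular to cartilage. In the control they summed to 2911 CPM in marked, 112956 in synovial lining, 3567 in tenocyte and 2980 in fibroblast cells. In the mutant these sums were 3433, 96095.5, 3059 and 2811 CPM. In the control, 139 cells were articular, 307 growth cartilage and 55 equal, and in the mutant 131, 144 and 57. Of the control cells 49 articular and 87 growth cartilage cells were 1 marker from the cut, and of the mutant cells 48 and 61, so that the classes are ranges rather than types. The growth cartilage cells were deeper, with a median of 6958 against 4108 UMIs in the control and 11938 against 7296 in the mutant.

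Of 32 genes compared between these cells, Slc26a2, Chst11, Papss2 and Csgalnact1 were at least 2-fold higher in growth cartilage cells of both libraries, against 3.12% of 7668 genes compared. Slc26a2 was at 460 CPM in growth cartilage and 100.2 CPM in articular cells of the control, and at 150 and 56.9 CPM in the mutant. Chst11 was at 677 and 197 CPM in the control and at 585 and 175 CPM in the mutant. Papss2 was at 670 and 196 CPM in the control and at 411 and 178 CPM in the mutant. Csgalnact1 was at 136 and 55.4 CPM, and at 73.5 and 28.5 CPM. All 4 were also among the genes highest in marked chondrocytes as a whole.

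Chst3 and Hs6st2 were at least 2-fold higher in articular cells of both libraries, against 6.56% of all genes compared. Their count is close to that share, so nothing about the set is read from it. All marked cells together held 23.2 UMIs of Chst3 in the control and 49.6 in the mutant, and 17.2 and 31.9 UMIs of Hs6st2. Chst3 was at 22.9 CPM in articular and 3.05 CPM in growth cartilage cells of the control, and at 37.3 and 6.58 CPM in the mutant. The 6-sulfotransferase and the 4-sulfotransferase Chst11 were thus higher in opposite cells. Hs6st2 was at 21.3 against 1.66 CPM and at 21.7 against 5.43 CPM. Xylt1 was found in both kinds, at 337 and 217 CPM in the control and 313 and 198 CPM in the mutant. Growth cartilage cells had a chondroitin to heparan ratio of 3.70 (control) and 3.84 (mutant), and articular cells of 1.67 and 2.26. Chst11 made up much of this. It held 677 of 1243 CPM of the chondroitin branch in growth cartilage cells of the control, and 585 of 999 CPM in the mutant. In articular cells it held 197 of 654 CPM and 175 of 550 CPM. The ratios without Chst11 are not given for these cells. Ugdh was higher in growth cartilage than in articular cells of the control, at 481 against 280 CPM, and lower in the mutant, at 356 against 490 CPM.

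**Figure D3:**
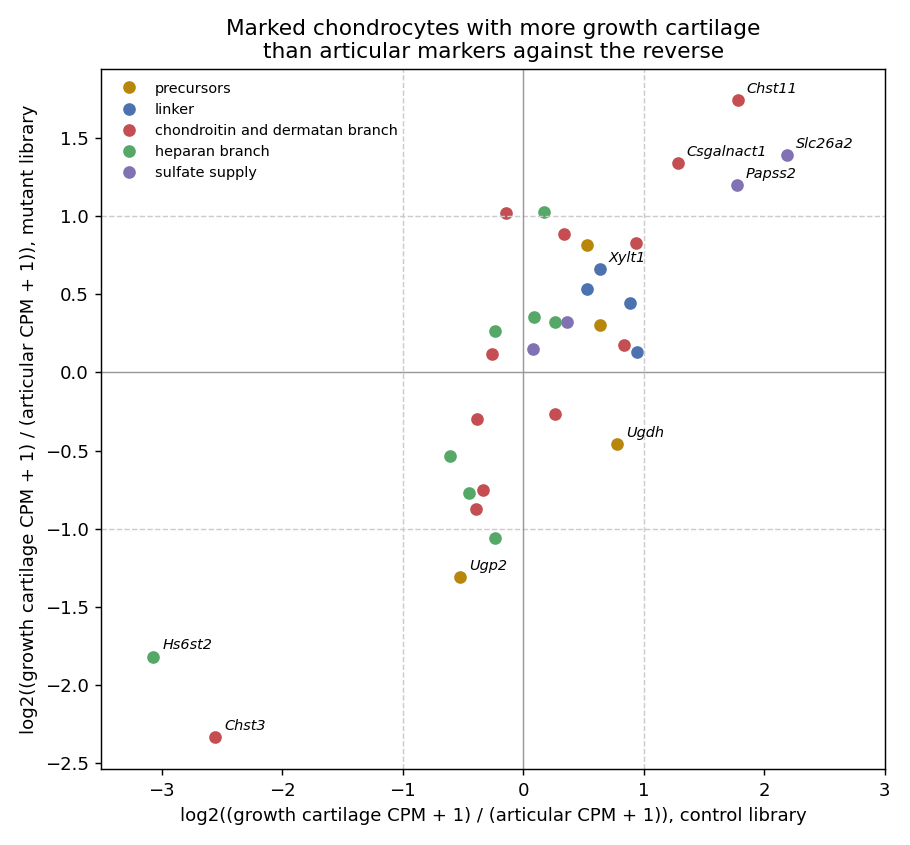
Each point is 1 of 32 genes, with its log2 ratio of growth cartilage over articular marked chondrocytes in the control library on the horizontal axis and in the mutant library on the vertical axis, coloured by role; dashed lines mark 2-fold. Slc26a2, Chst11, Papss2 and Csgalnact1 lie at the upper right, and Chst3 and Hs6st2 at the lower left.

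The libraries were then compared within marked chondrocytes. Of 31 genes with an average of at least 10 CPM, 26 were lower and 5 higher in the mutant library. The lower share was 83.9%, against 62.7% of the 7579 genes compared. The median log2 ratio of mutant over control was -0.38, where the median of all genes was -0.18. Scaling by the median ratio of all genes moved the 2 medians to -0.21 and -0.02, with 22 of 31 lower. Markers used to gate other cell types also differed between the marked cells of the libraries. The paper's hypertrophic gene set shares a gene with the osteoblast markers, and whether these came from another cell type was not tested. The 6 osteoblast markers, all detected in both libraries, summed to 896 CPM in marked control and 4541 CPM in marked mutant cells, and 6 control and 21 mutant marked cells held at least 3 of them. The 6 tenocyte markers summed to 2489 and 1577 CPM and the 6 marrow stromal markers to 219 and 455 CPM. Without the marked cells that held 3 markers of any other class, the median log2 ratio of the glycosaminoglycan genes was -0.33. The part of the remaining marker signal in these ratios was not tested. By role, the median log2 ratio was -0.25 for precursors, -0.27 for linker genes, -0.34 for the chondroitin branch, -0.55 for the heparan branch and -0.69 for sulfate supply. Slc26a2, Chst15 and Csgalnact1 were at least 2-fold lower in the mutant, against 5.59% of all genes. Chst3 was at least 2-fold higher, against 3.76% of all genes. Among 31 genes, counts of 3 and 1 are too small to set against these shares, and nothing about the set is read from them.

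Slc26a2 differed most, at 369 CPM in control and 109 CPM in mutant marked chondrocytes, a log2 ratio of -1.76 that ran from -1.89 to -1.46 over 12 alternative settings. A UMI was seen in 65.1% of control (60.7 to 69.2%) and 41.0% of mutant cells (35.6 to 46.5%), and after thinning to 1500 UMIs in 34.0% and 12.3%. In erythroid-gated control cells the unthinned share was 12.7%. The log2 ratio was -0.81 in articular cells and -1.61 in growth cartilage cells. In the fibroblast, synovial lining, tenocyte and marrow stromal gates it was between -0.01 and 0.18, from 8.8 to 38 UMIs per gate and library. It was -0.65 in the osteoblast gate, from 26.6 and 18.7 UMIs, and -1.23 in the mural gate, from only 6.3 and 3.9 UMIs. Whether marked chondrocytes differ from these gates was not tested.

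The other sulfate supply genes were lower as well. Papss2 was at 551 and 309 CPM, a log2 ratio of -0.83, which was -0.13 in articular and -0.70 in growth cartilage cells. Impad1 was at 146 and 99.2 CPM and Papss1 at 40.4 and 34.1 CPM. The summed level of the group had a log2 ratio of -1.0, and of -1.19 without Papss2. The growth cartilage share of marked cells was 61.3% in the control (56.9 to 65.6%) and 43.4% in the mutant (38 to 48.9%), and how far this shift sets the pooled ratios was not tested beyond the values within each kind.

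In the chondroitin branch, Chst15 was at 48.0 and 20.5 CPM (147 and 62.8 UMIs) and Csgalnact1 at 115 and 54.7 CPM. Both were lower within articular and within growth cartilage cells, at log2 ratios of -1.03 and -1.14 for Chst15 and -0.94 and -0.88 for Csgalnact1. Chst15 was also lower in the osteoblast gate at -1.32 (9.6 and 3.9 UMIs), synovial lining at -0.94, marrow stromal at -0.82 and fibroblast at -0.78. It was higher in the tenocyte gate at 0.23 (15.2 and 4 UMIs) and the mural gate at 0.55 (0.9 and 2 UMIs). Csgalnact1 ran from -3.02 in the mural gate to 1.42 in the fibroblast gate. Csgalnact1 passed the 2-fold line narrowly, at -1.06, and ranged from -1.25 to -0.68 over the alternatives, and Chst15, at -1.19, ranged from -1.43 to -0.91. Chsy1 had a log2 ratio of -0.87 and Chst11 of -0.44. Chst3 was at 7.54 CPM from 23.2 UMIs in the control and 16.2 CPM from 49.6 UMIs in the mutant, where 3 cells held 28.1% of them, and its log2 ratio of 1.01 ran from 0.41 to 1.22. Within articular cells it was 0.68 and within growth cartilage cells 0.90. It fell short of 2-fold with a pseudocount of 10 CPM, with cells weighted equally, with the study's limits on mitochondrial and total counts, and with all Sox9- and Col2a1-positive cells.

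Linker genes ranged from -0.96 for Fam20b, at 99.9 and 50.8 CPM, to 0.16 for B4galt7. Fam20b was also lower in every other gate, with log2 ratios from -1.22 in mural cells to -0.60 in fibroblasts. Xylt1 was at 317 and 263 CPM, a log2 ratio of -0.27, close to the median of all genes. In the heparan branch 6 of 7 genes compared (85.7%) were lower, against 62.7% of all genes. With 7 genes, nothing about the branch is read from this count. Extl2 was at -0.89, Hs2st1 at -0.89, Ndst1 at -0.68, Ext1 at -0.55, Ext2 at -0.44 and Glce at -0.40, and Hs6st1 was higher at 0.49. The summed heparan branch had a log2 ratio of -0.49 and the chondroitin branch of -0.44, so that the branch ratio differed by 0.05 between libraries. In marked chondrocytes the levels of both branches were thus lower by a like amount. The mutant share of the chondroitin branch there lay within the counting interval of the control share. The summed heparan branch was also lower in most other gates, at -0.49 in osteoblasts, -0.45 in fibroblasts, -0.87 in tenocytes, -0.43 in marrow stromal and -0.29 in synovial lining cells. In mural cells it was 0.06. The summed chondroitin branch ran from -0.36 in osteoblasts to 0.11 in synovial lining cells. Whether marked chondrocytes differ from these gates was not tested.

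Of the precursors, Ugp2 was higher in the mutant at 65.7 and 96.5 CPM, a log2 ratio of 0.55. Ugp2 was also higher in the mutant in every other gate, with log2 ratios from 0.05 in osteoblasts to 1.44 in synovial lining cells. Ugdh had a pooled log2 ratio of -0.16, which was 0.81 in articular and -0.43 in growth cartilage cells. Uxs1 and Slc35d1 were at -0.38 and -0.33.

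**Figure D4:**
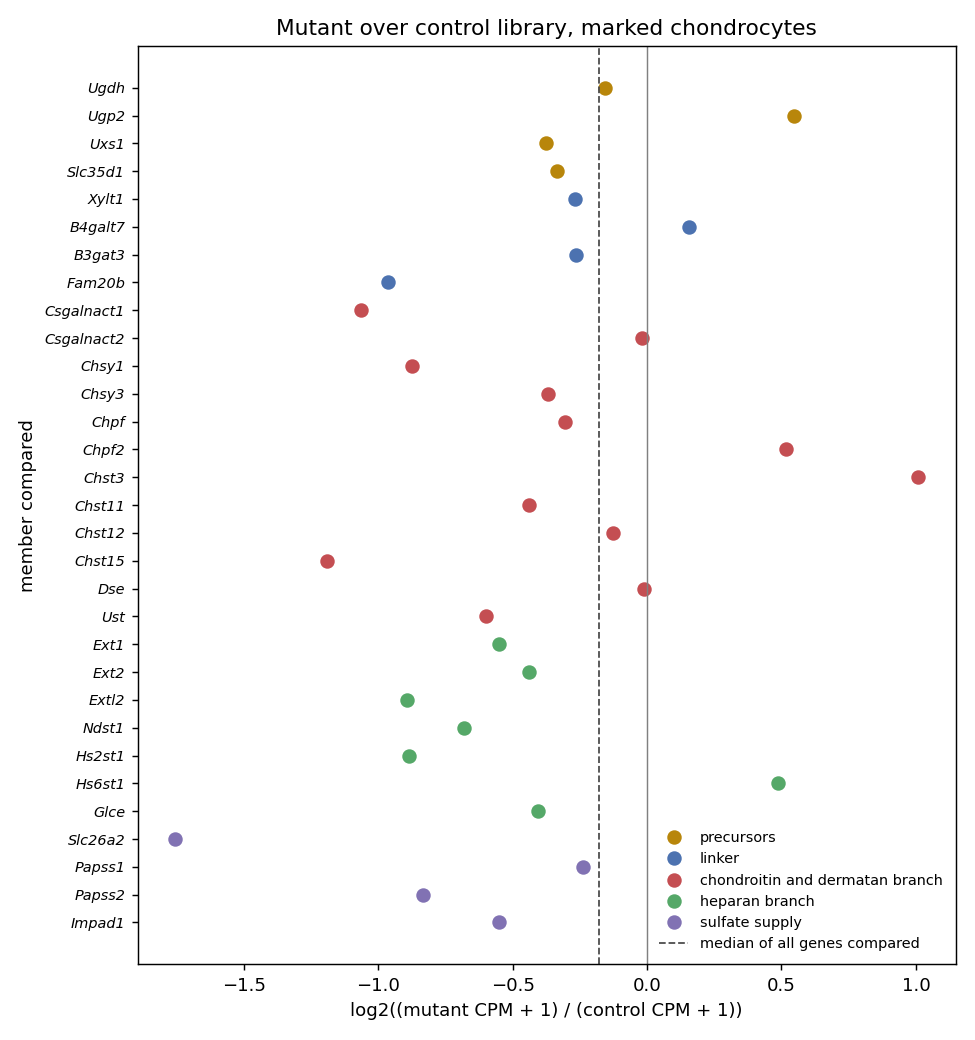
Log2 ratio of mutant over control CPM (pseudocount 1 CPM) in marked chondrocytes for the 31 genes compared, in order of role and coloured by it; the solid line is 0 and the dashed line the median of all genes, -0.18. Slc26a2 lies farthest left at -1.76 and Chst3 farthest right at 1.01.

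Genes around the pathway were described from fixed lists. Of 9 core proteins of chondroitin or dermatan compared between classes, 4 (44.4%) were called higher and 3 (33.3%) lower in marked chondrocytes. Over all genes compared the shares were 5.19% and 13%. Acan was at 4837 and 1697 CPM in control and mutant marked chondrocytes against 101 and 41.3 CPM elsewhere, Epyc at 323 and 197 CPM against 1.38 and 1.17 CPM, and Col9a2 at 3235 and 2151 CPM against 26.5 and 9.37 CPM. Vcan, Dcn and Ptprz1 were lower, with Dcn, a small dermatan sulfate proteoglycan, at 837 and 1519 CPM against 3657 and 4720 CPM. The core proteins of heparan chains were mixed, with 3 of 12 (25%) higher, namely Sdc4, Sdc3 and Hspg2, and 4 (33.3%) lower. Sdc4, a cell surface proteoglycan, was at 1117 and 1245 CPM against 172 and 203 CPM, whereas Sdc2 was at 111 and 108 CPM against 455 and 405 CPM.

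Of 7 further chain enzymes compared, Extl1 and Pxylp1 were higher (28.6%) and Sulf1 and Chst2 lower (28.6%), against 5.19% and 13% of all genes. Pxylp1, the phosphatase that removes the phosphate set by Fam20b, was at 62.0 and 52.7 CPM against 14.7 and 15.7 CPM. Sulf1, which removes sulfate from heparan chains outside the cell, was at 28.7 and 23.7 CPM against 135 and 76.1 CPM. None of 9 lysosomal genes that break the chains down was at least 2-fold higher in both libraries. Beside the share of 5.19% of all genes, nothing is read from this count.

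Between libraries, Acan had a log2 ratio of -1.51 in marked chondrocytes, and of -1.16 in articular and -1.33 in growth cartilage cells. In the mutant, CreERT2 in the Acan locus came together with the intended deletion of Stat3, and the 2 cannot be told apart for Acan. Among the core proteins, Epyc was at -0.71 and Cspg4 at -0.63, Srgn at 1.45 and Dcn at 0.86, and 3 cells held 41.3% and 21.2% of the last 2 genes' mutant UMIs. Among heparan core proteins, ratios ran from -0.85 for Gpc1 to 0.46 for Gpc4 and among further enzymes from -0.72 for Extl1 to 0.32 for Slc35b3. Of the lysosomal genes, Hgsnat was lowest at -0.74.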

How the data were processed

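Cells were sequenced with 10x Genomics 3′ v3.1 chemistry. According to the study's methods and the submitters' processing notes, the authors aligned reads to mm10 with STAR 2.7.3a in Partek Flow, removed duplicate UMIs, counted on a Gencode annotation and removed ambient RNA with SoupX. The tables deposited by the authors hold log2(CPM + 1) for each gene in each cell. Beside these stand an estimated count, the authors' UMI total after ambient correction, and the deposited percent of mitochondrial and of ribosomal UMIs. A further deposited score gives how many genes a cell expressed, and a word in another column shows which cells were selected.

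UMIs were estimated by undoing the log2 and the scaling with each cell's own total, and 74.9% of control and 97.3% of mutant values lay within 0.1 of a whole number, so no count model was used. Marked cells summed to 3068822 UMIs (control) and 3062808 UMIs (mutant). CPM were computed per library and class, and ratios as log2((a + 1)/(b + 1)). A cell was gated if it was unmarked, not positive for both Sox9 and Col2a1, and held at least 0.5 UMI of at least 3 of 6 markers of a class and of fewer markers of every other class. Cells that tied between classes stayed ungated. No doublet caller was run. Marked cells with 3 markers of another class (54 control and 58 mutant) were left out as an alternative, and the limits of 5% mitochondrial and 24000 counts, which the methods state but some deposited cells exceed, were tried as another. Cells were thinned to 1500 UMIs where shares or genes per cell were compared, and 12 alternatives were run in all. The calculation of ratios was run on simulated counts of 7604 genes for the comparison of libraries. Of 100 genes changed 4-fold 94% were called, and of 100 changed by 1.5 on the log2 scale 88%. All had the right direction. Each count was drawn at the pooled depth, without variation between cells, mice or libraries. The simulation therefore checks the calculation only and says nothing on noise between libraries.

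The 38 genes and the lists were chosen with earlier results of these data known. Genes named are the 38, Sox9, Col2a1, Acan and Stat3, and of the other pathway lists those at least 2-fold the same way in both libraries, up to 3 each way, and the 3 highest and 3 lowest genotype ratios. Col9a1, Hapln1 and Cnmd check the mark. Promoter sequences are RefSeq's on GRCm38.p6. Software was Python 3.11.15, numpy 2.4.6, scipy 1.17.1, pandas 2.3.3 and matplotlib 3.10.9. The values of 1 lysosomal gene are not reported here.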

Additional observations from a re-analysis of the deposited data

Results flagged for a closer look

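Csgalnact1 was 2-fold or more apart in opposite directions in marked chondrocytes and in the fibroblast gate. The log2 ratio of mutant over control was -1.06 in marked chondrocytes, from 354 and 168 UMIs, and 1.42 in the fibroblast gate, from 12.3 and 31.8 UMIs. This difference was not tested, since there is 1 library per genotype.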

How the results depend on the processing

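With 1 library per genotype, no library could be left out. No paired analysis was possible because the groups share fewer than 2 replicate numbers. The 12 alternatives were planned, and leaving out the most abundant gene of each group was added after seeing the data. The count of genes higher in marked chondrocytes, 10, ran from 7 to 11. The count lower there, 1, became 0 with a pseudocount of 10 CPM, with median-of-ratios scaling and after thinning, and 2 without cells holding 3 markers of another class and with no minimum CPM. The log2 difference of the branch ratio in the control, 1.46, became 1.34 with cells weighted equally, 1.35 with all Sox9- and Col2a1-positive cells, 1.33 after thinning and 0.49 without Chst11. In the mutant, 1.22 became 1.35 without cells holding other markers, 1.38 where 2 UMIs of each of Sox9 and Col2a1 were required, 0.95 after thinning and 0.27 without Chst11. The median log2 ratio of mutant over control, -0.38, became -0.21 with median-of-ratios scaling and -0.62 after thinning. The count higher in the mutant, 1 (Chst3), became 0 with a pseudocount of 10 CPM, with cells weighted equally, with the mitochondrial and count limits and with all Sox9- and Col2a1-positive cells. The count lower in the mutant, 3, became 1 with a pseudocount of 10 CPM and with all Sox9- and Col2a1-positive cells, 5 without cells holding other markers and 6 after thinning. Slc26a2 was among them in every alternative. The summed precursors, at a log2 ratio of -0.12, reversed to 0.043 with median-of-ratios scaling and 0.017 with all Sox9- and Col2a1-positive cells. Apart from the construction of each alternative, the cause was not tested. Of the values for single genes, 1299 stayed within their limits and 69 moved.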

Other observations

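Among enzymes outside the 38 genes, Extl1, of the exostosin family, was at 26.5 CPM in control and 15.7 CPM in mutant marked chondrocytes, and at 0.475 CPM in the mean of the other control classes, while none of the 6 mutant classes held a UMI. Hs3st3b1, a heparan 3-O-sulfotransferase, was at 17.0 and 17.3 CPM against 0.809 and 1.5 CPM. Chst2, which sulfates N-acetylglucosamine, was at 245 and 250 CPM in synovial lining cells and at 6.63 and 10.4 CPM in marked chondrocytes. Hs3st3b1 was chosen after its values were seen.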
